A study of Drosophila melanogaster with 4 samples.

Results

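Rab GTPases are small proteins that mark the membranes of the cell. Bound to GTP a Rab sits on one class of membrane and recruits effectors that move, tether or fuse vesicles, and bound to GDP it is extracted to the cytosol. Exchange factors load GTP and activating proteins speed its hydrolysis. In the ovary this family is known for the delivery of adhesion and polarity proteins in the germarium, for trafficking that serves the polarity of the oocyte, for yolk uptake, and for the secretion of basement membrane by follicle cells. The 33 genes described here are those whose FlyBase symbol is Rab or RabX followed by a number and any letters, out of 17699 gene identifiers in the count tables.

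The data are polysome-seq of *Drosophila melanogaster* ovaries enriched for germline cysts, with 2 input libraries and 2 polysome libraries (replicates 1 and 3 of each). All 4 libraries come from flies with the same alleles: the germline driver NosGAL4 with UAS-Dicer2 expresses bam RNAi, which keeps germ cells undifferentiated, and hs-bam, a heat-inducible copy, then lets them form cysts. On each of 2 days the flies spent 2 h at 37°C, 4 h at rest and another 2 h at 37°C, and dissection followed at an adult age of 3 to 5 days. A heat-shock promoter is not limited to germ cells, and the ovaries keep their somatic cells, so fewer cells of a type and less RNA per cell cannot be told apart.

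Reads on genes numbered 10646651 in input 1, the shallowest library, and 22647905 in polysome 3, the deepest. Polysome 3 stood apart from the others. Summed over 7 late egg chamber markers it held 7578 CPM (read counts scaled to a common library size), against 38.9 to 161 CPM in the other libraries. Over 9 muscle sheath markers it held 6823 CPM against 21894 to 28631 CPM. Among the muscle markers, bt and sls were instead lowest in polysome 1, at 133 and 54.5 CPM, against 228 and 128 CPM in polysome 3. The 4 germline markers that were matched, vas, aub, bgcn and AGO3, summed to 430.0 to 601 CPM, although bgcn was at 5.14 CPM in polysome 3 and 42.7 to 88.0 CPM elsewhere. Markers of 4 follicle cell genes were at 713 to 1324 CPM, of 3 hemocyte genes at 79.9 to 202 CPM, of 3 fat body genes at 32.1 to 112 CPM and of 5 neuronal genes at 21.9 to 106 CPM. TRIzol served for the inputs and phenol-chloroform for the polysome samples, so the extraction method and the fraction cannot be told apart.

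Which Rabs are expressed in cyst-enriched ovaries was read from the 2 inputs as TPM, a share of transcripts that corrects for gene length. At 1 TPM or more in both inputs, 24 of the 33 Rab genes were expressed, against 45.2% of all genes with a known length. The level was at least 10 TPM in 20 of them and at least 100 TPM in 7. The remaining detected gene, Rab3, was at 0.823 TPM in input 1 and 2.67 TPM in input 3. The other 8 genes had no read in any library. The 25 detected genes had reads in all 4 libraries and are the 25 that passed the filter on low counts.

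Rab11, Rab1, Rab7 and Rab5 made up about as much mRNA as the rest of the family together. Rab11, the Rab of recycling endosomes, lies on chromosome 3R from 21111408 to 21116146 (dm6). It was at 289.9 and 432 TPM in input 1 and 3 and at 399 and 388 TPM in polysome 1 and 3. Rab1, which acts between ER and Golgi, lies on 3R from 21266029 to 21269060 and was at 344 and 367 TPM in the inputs and 454 and 422 TPM in the polysomes. Rab7, the late endosome Rab, was at 303 and 317 TPM in the inputs and 394 and 402 TPM in the polysomes. Rab5, the early endosome Rab, which serves yolk uptake later in oogenesis, was at 182 and 246 TPM in the inputs and 213 and 277 TPM in the polysomes. These 4 held 48.4% and 51.1% of Rab TPM in the inputs and 49.3% and 52.7% in the polysomes, of a family sum of 2308, 2664, 2964 and 2825 TPM in the same order. Their mean input levels lay at percentiles 94.3 to 96.5 of tested genes.

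A second tier held secretory, Golgi, recycling, and late endosome and lysosome Rabs, together with Rab40. In mean input level it ran from Rab10 (157 TPM) through Rab8 (140.1 TPM), Rab2 (134 TPM), Rab35 (119 TPM), Rab40 (104 TPM), Rab14 (101 TPM), Rab6 (97.2 TPM) and Rab4 (88.9 TPM) to Rab39 (75.7 TPM). Rab10 directs basement membrane secretion in follicle cells, Rab8 acts in exocytosis, Rab2 and Rab6 act at the Golgi, and Rab35 and Rab4 in recycling. Rab18 of the ER and lipid droplets (54.7 TPM) and RabX1 (47.1 TPM) followed. Below them stood the Golgi Rab Rab19 at 29.2 TPM and RabX6, RabX4, Rab21, Rab30, Rab23 and Rab32 between 10.62 and 19.4 TPM, with Rab27, Rab9 and Rab3 at 5.88, 5.72 and 1.75 TPM.

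Of 24 neighbouring pairs in the order, 17 had overlapping input levels and 7 did not. The separate pairs were Rab1 above Rab7, Rab7 above Rab5, Rab5 above Rab10, RabX1 above Rab19, Rab19 above RabX6, Rab32 above Rab27, and Rab9 above Rab3. Rab11 and Rab1 at the top overlapped, as did every neighbouring pair from Rab10 down to RabX1.

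**Figure D1:**
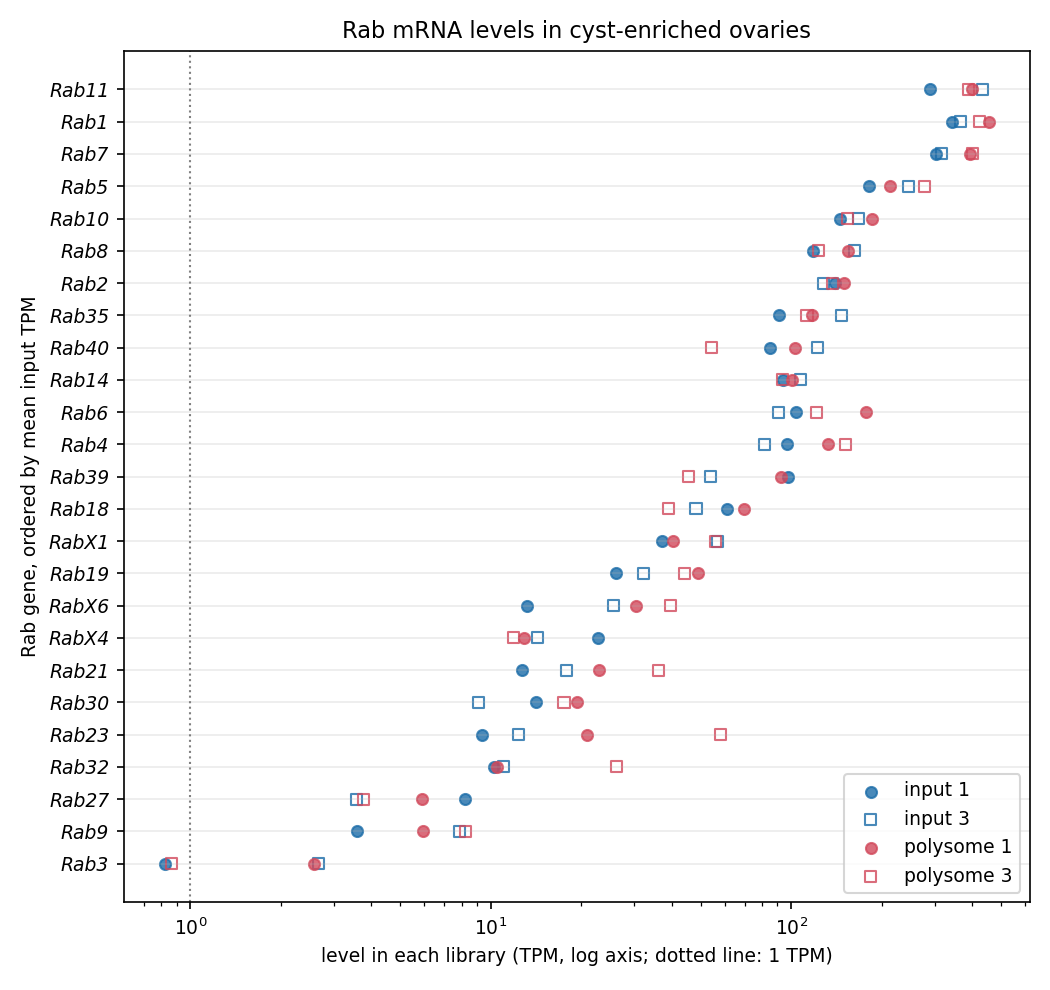
Levels of the 25 detected Rab genes in each library in TPM on a log axis, ordered by mean input level, with inputs in blue, polysomes in red, replicate 1 as filled circles and replicate 3 as open squares. The 4 leading genes lie between 182 and 454 TPM, Rab3 falls on either side of the dotted line at 1 TPM, and Rab23 is at 58.2 TPM in polysome 3 against 9.36 to 20.9 TPM in the other libraries.

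The Rabs known mainly from regulated secretion in neurons were low or unread. Rab3, the synaptic vesicle Rab, had 21 and 70 reads in the inputs and 108 and 44 reads in the polysomes. Rab27, which also serves regulated secretion, had 87, 39, 103 and 80 reads in the same order. Rab26, a secretory vesicle Rab, had none on its exons, which span 4353 bases. A count of 0 allows up to 3 reads, here at most 0.102 TPM of Rab26 in input 1 and 0.0508 TPM in polysome 3. Of the neuronal markers, brp was at 0 to 5.42 CPM, Syt1 at 0 to 1.19 CPM and para at 0 to 3.86 CPM. The marker nSyb was read in every library, at 2.30 to 8.32 CPM. For elav the input levels were 57.2 and 91.9 CPM and the polysome levels 28.9 and 15.7 CPM. The part of neuronal cells in the Rab3 and Rab27 reads was not tested.

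The other unread members were RabX2, RabX5 and the 5 Rab9-like genes Rab9D, Rab9Db, Rab9E, Rab9Fa and Rab9Fb. Of the 8 unread genes 6 are single-exon genes on the X chromosome, between 10417429 and 10952486, and 7 of the 13 X-linked Rabs were detected. The limit from 3 reads was at most 0.559 TPM for these genes (RabX2 in input 1). It covers counting error only, since reads from PCR are not independent molecules. In polysome 1, 160 genes had 1 to 10 reads and 1379 genes had 11 to 100 reads, against 8589 genes at 0. The counts hold uniquely mapped reads, so a read that fits more than one of the Rab9-like copies would not be counted and their 0 is uncertain.

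The question put to the fractions was which mRNAs are held back from, or loaded onto, polysomes. No Rab mRNA passed the test of polysome against input: 0 of 25 had an adjusted p under 0.05 by the quasi-likelihood test of edgeR, as did 0% of all 9038 tested genes. By an unadjusted p under 0.05 there was 1 Rab, Rab23, against 4.68% of tested genes. DESeq2 called 0 Rabs and 0.463% of genes, the replicate block 0 Rabs and 0.52%, and a fit with no count filter 0 Rabs and 0.952%. Without input 1 the calls were 0 Rabs and 0.0816% of genes, and without polysome 3 they were 0 Rabs and 0.549%. Without polysome 1 the fit called 1 Rab, Rab23, and 7.24% of genes. The log2 fold change of polysome over input was positive for 11 Rabs and negative for 14, with a median of -0.13 against 0.00 over all tested genes. Without input 3 the family median was 0.10, against 0.09 over all tested genes, and without polysome 1 it was 0.08, against -0.07. Standard errors of the Rabs ran from 0.36 to 1.80, and the best measured of them, Rab2, had a 95% interval of -0.99 to 0.68.

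Most Rabs had a polysome share close to their input share. The absolute log2 fold change was under 0.5 for 18 of 25 Rabs (72%) against 52.4% of tested genes, and its median was 0.31 against 0.47. Between the highest and the lowest of the 4 libraries the median fold was 1.71 for Rabs and 2.50 for all tested genes, and 8 Rabs varied by less than 1.5-fold against 12.3% of genes. The median Rab lay at percentile 82.2 of input levels among tested genes, and the part of abundance in these shares was not tested.

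The most even member was Rab1. It had input levels of 409 and 424 CPM and polysome levels of 433 and 425 CPM, a log2 fold change of 0.04 ± 0.38 (SE) with a 95% interval of -0.84 to 0.92. Its highest library exceeded its lowest 1.06-fold, which placed it at percentile 0.0885 of tested genes, where low means even. An antisense RNA overlaps 742 bases of Rab1 exons, and with unstranded counts, where reads in that overlap name no gene, the value was -0.35. Rab7 was almost as even, with input levels of 339 and 345 CPM and polysome levels of 354 and 381 CPM (0.10 ± 0.38; 1.12-fold, percentile 0.542). Rab2, which acts in Golgi and late endosome traffic, had input levels of 157 and 141 CPM and polysome levels of 136 and 132 CPM (-0.16 ± 0.36). Rab10 was at 224, 251, 229 and 201 CPM in input 1, input 3, polysome 1 and polysome 3 (-0.14 ± 0.37), with the fractions overlapping.

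Both polysome libraries lay above both inputs for 7 Rabs, of 25 tested, against 17.2% of tested genes. They were Rab1, Rab7, Rab4, Rab19, Rab21, Rab30 and Rab23. Both polysome libraries lay below both inputs for Rab2, Rab14, Rab40 and RabX4, 4 of 25 against 18.1%. In the other 14 the fractions overlapped. None of these was called, and each 95% interval other than that of Rab23 includes 0.

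**Figure D2:**
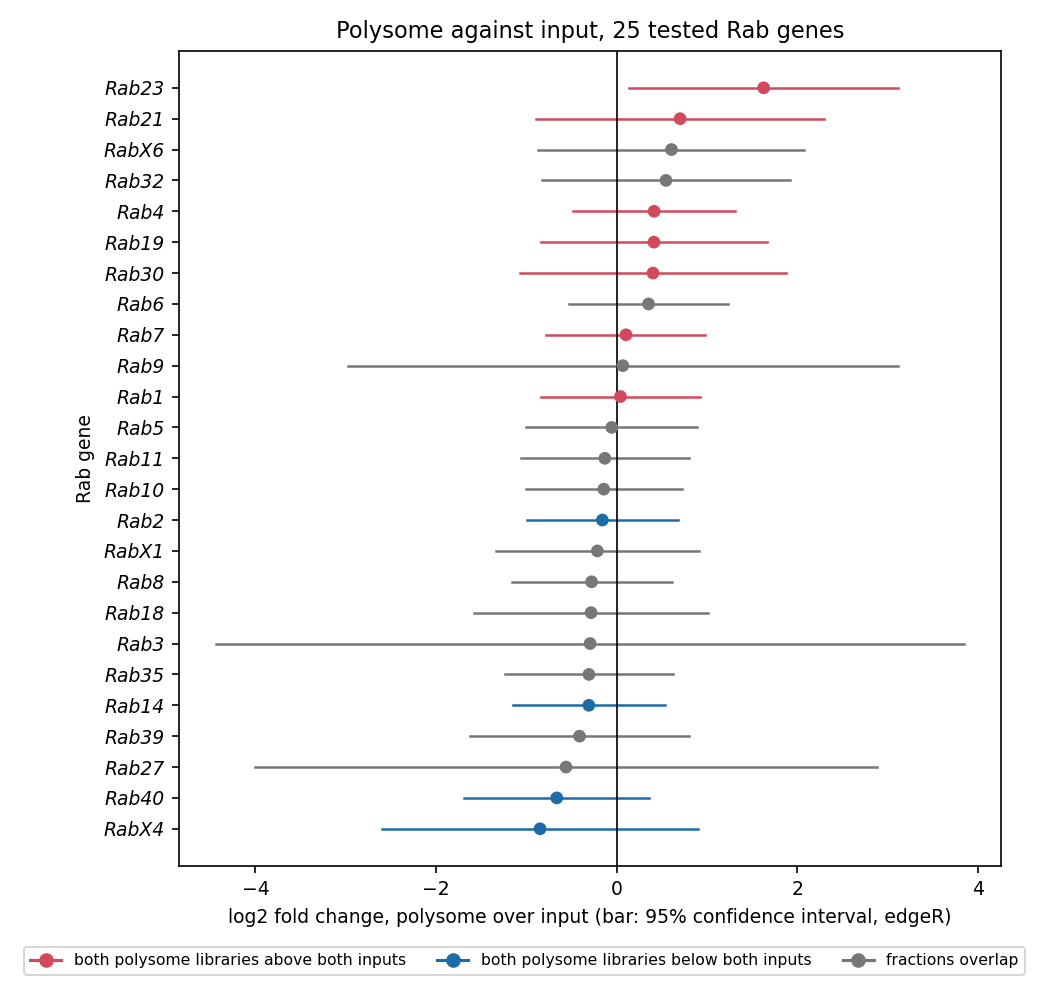
Log2 fold change of polysome over input for the 25 tested Rab genes, with 95% confidence intervals from the edgeR fit, in red where both polysome libraries lie above both inputs, in blue where both lie below and in grey where they overlap. Only the interval of Rab23 (0.14 to 3.12) leaves out 0, before adjustment for the number of genes.

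Rab23 had the highest ratio of polysome to input in the family. It is known in flies for planar cell polarity and in mammals as an inhibitor of Hedgehog signalling, and lies on 3R from 5680054 to 5685434. It had input levels of 14.0 and 17.9 CPM and polysome levels of 25.1 CPM in replicate 1 and 73.6 CPM in replicate 3, from 144, 195, 531 and 1790 reads. Both polysome libraries lay above both inputs, polysome 3 by far the more. The log2 fold change was 1.63 ± 0.65, with an unadjusted p of 0.0356 and an adjusted p of 0.956 by edgeR. Without polysome 3 it was 0.64. The fit without polysome 1 gave 2.26 (adjusted p = 0.00383 by edgeR), but it calls 7.24% of genes and takes the lone polysome library to vary like the inputs. The adjusted p of Rab23 was 0.443 to 1.00 in the other alternatives. The late egg chamber markers were also higher in polysome 3, and their part in the value was not tested.

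Rab32, which serves lysosome-related organelles such as eye pigment granules, was high in polysome 3 alone. It had input levels of 27.6 and 28.8 CPM and polysome levels of 22.5 CPM in replicate 1 and 59.8 CPM in replicate 3. The log2 fold change was 0.55 ± 0.60 over 4 libraries and -0.34 without polysome 3. Rab40, whose protein carries a SOCS box that recruits a ubiquitin ligase, was lowest in polysome 3, with input levels of 96.6 and 135 CPM and polysome levels of 94.0 CPM in replicate 1 and 52.2 CPM in replicate 3 (-0.66 ± 0.44; -0.32 without polysome 3 and -1.09 without polysome 1). RabX4 had the lowest fold change, -0.85 ± 0.76, and here both polysome libraries were alike: 9.64 and 9.37 CPM against 21.3 and 13.0 CPM in the inputs (-0.45 without input 1). A stretch of 131 bases of RabX4 exons is shared with Kaz on the same strand, and reads there name no gene.

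Translational efficiency, which the study defines as the log2 of polysome TPM over input TPM with 1 TPM added to each, gives the replicates one by one. Its median over the 25 Rabs was 0.38 in replicate 1 and 0.06 in replicate 3, close to the 0.32 and 0.09 of all tested genes. It was positive for 22 Rabs in replicate 1 and 14 in replicate 3. Above the median of tested genes were 15 of the 25 Rabs in replicate 1 and 12 in replicate 3. Relative to the median of tested genes, 9 Rabs were above it in both replicates and 7 below it in both, against 25.8% of tested genes on either side. Across the 25 Rabs, which share libraries and are not independent replicates, the efficiencies of the 2 replicates correlated at r = 0.34, or 0.18 without Rab23, and across 8959 tested genes at r = 0.06.

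The 9 members above the median in both replicates were Rab1, Rab7, Rab6, Rab4, Rab19, RabX6, Rab21, Rab30 and Rab23. Rab23 led with 1.08 in replicate 1 and 2.15 in replicate 3, a mean of 1.62 ± 0.53 (SE, n = 2). Rab21, an endosomal Rab close to Rab5, had 0.81 and 0.97 (0.89 ± 0.08), the narrowest spread among those above 0.5. Its levels were 10.4 and 14.2 CPM as input and 15.1 and 25.03 CPM as polysome, with a log2 fold change of 0.70 ± 0.69 (0.28 without polysome 3). RabX6 had 1.15 and 0.61, from input levels of 11.2 and 21.0 CPM and polysome levels of 20.7 and 28.4 CPM. Over 466 bases of its exons RabX6 faces Vti1a on the opposite strand. For Rab4, Rab19, Rab30 and Rab6 the mean efficiency was 0.67 ± 0.22, 0.66 ± 0.22, 0.65 ± 0.23 and 0.59 ± 0.17.

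Of these, Rab19, Rab30 and Rab6 share a place at the Golgi, and Rab4 works in rapid recycling from early endosomes. Rab6, a single-exon gene whose protein is required for the delivery of polarity cues in the oocyte, had input levels of 129.8 and 110.1 CPM and polysome levels of 178 and 129 CPM, so polysome 3 fell within the inputs (0.35 ± 0.38). Rab4 had input levels of 83.8 and 68.4 CPM and polysome levels of 92.0 and 111 CPM (0.42 ± 0.39). Rab19 had input levels of 19.0 and 22.8 CPM and polysome levels of 28.5 and 27.2 CPM (0.41 ± 0.54, or 0.76 with unstranded counts). Rab30 had input levels of 19.1 and 11.9 CPM and polysome levels of 21.0 and 20.1 CPM (0.40 ± 0.64; 0.10 without input 3). All of these fold changes were close to or below their standard errors.

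At the other end, the 7 members below the median in both replicates were Rab40, Rab14, Rab39, Rab18, RabX1, RabX4 and Rab27. Rab40 had an efficiency of 0.28 in replicate 1, where the median of tested genes was 0.32, and -1.16 in replicate 3. Rab3 had 0.97 and -0.98. In Rab40 and Rab3 the replicates had opposite signs. Against 0 rather than the median, only RabX4 (-0.78 and -0.25) and Rab39 (-0.07 and -0.25) were lower in both replicates. Rab14, a phagosome and endosome Rab, had 0.10 and -0.19, from input levels of 114.8 and 128 CPM and polysome levels of 98.9 and 97.1 CPM (-0.31 ± 0.37). The exocytic Rab8, with input levels of 179.7 and 241 CPM and polysome levels of 188 and 159 CPM, had 0.38 and -0.40. Rab35, a recycling and actin-linked Rab at 213, 334, 219.9 and 223 CPM, had 0.36 and -0.38.

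**Figure D3:**
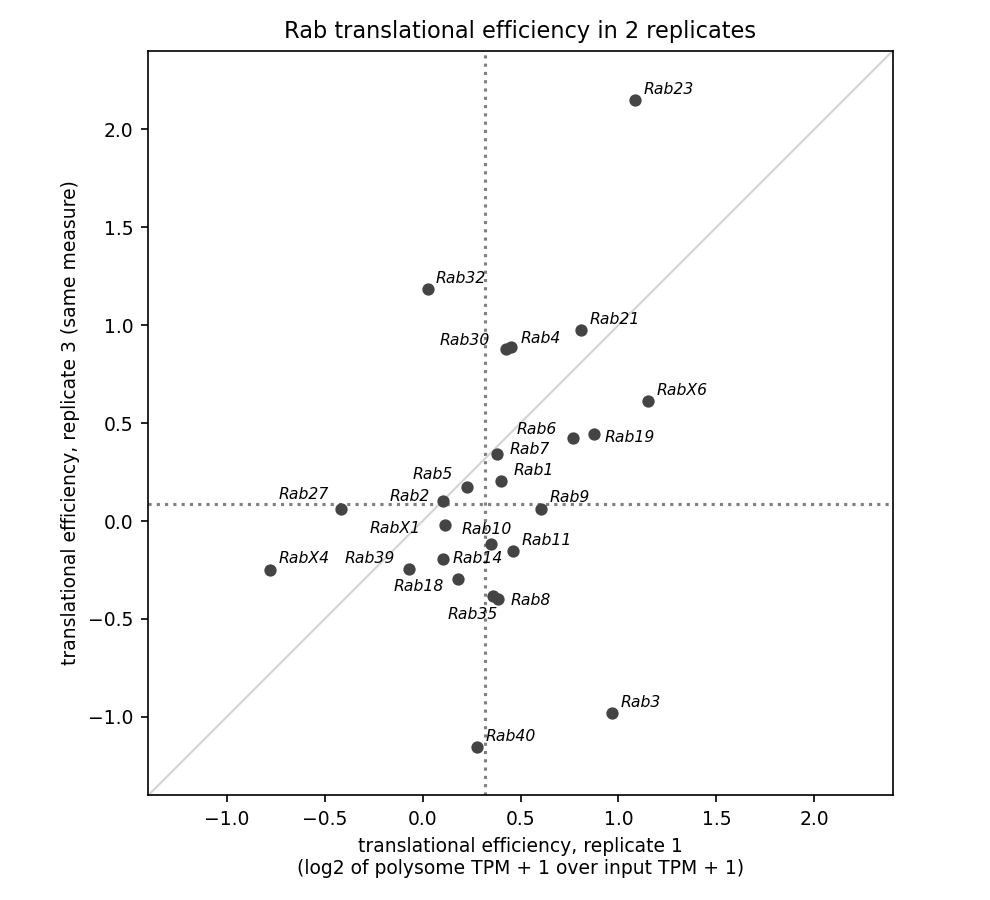
Translational efficiency of the 25 tested Rab genes in replicate 1 (x axis) and replicate 3 (y axis), each the log2 of polysome TPM + 1 over input TPM + 1, with dotted lines at the medians of all tested genes (0.32 and 0.09) and a grey line of equality. Rab23 stands at the upper right and Rab32 is high in replicate 3 only. Rab3 is low in replicate 3 only, while Rab40 lies below both dotted lines, narrowly in replicate 1 (0.28) and widely in replicate 3 (-1.16).

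Grouped by place in the cell, none of the classes held a called gene. The 6 ER and Golgi Rabs (Rab1, Rab2, Rab6, Rab18, Rab19, Rab30) had a median log2 fold change of 0.20, with 4 positive and 2 negative. The 5 of early endosomes and recycling (Rab5, Rab21, Rab4, Rab11, Rab35) had a median of -0.05, which was 0.16 without input 3 and 0.21 without polysome 1. The 5 of late endosomes and lysosomes (Rab7, Rab9, Rab14, Rab32, Rab39) had a median of 0.07, which was -0.24 without polysome 3. All 4 tested Rabs of secretory vesicles and exocytosis (Rab3, Rab8, Rab10, Rab27) were negative, with a median of -0.28 against 0.00 over tested genes. Leaving out input 1, input 3 or polysome 3 made 1 of the 4 positive, and the median ran from -0.59 without polysome 1 to -0.05 without input 3. Their median efficiency was 0.37 in replicate 1, against 0.32 over tested genes, and -0.26 in replicate 3, against 0.09. The pair of Rab23 and Rab40, which fit none of these classes, had opposite signs and a median of 0.48, and the 3 tested RabX genes had a median of -0.21 (0.10 without input 3 and 0.09 without polysome 1).

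Several Rabs differed more between replicates than between fractions. Of 25 Rabs 17 were on the same side in both fractions when replicate 3 was set against replicate 1 (10 higher and 7 lower in both), against 43.9% of tested genes. Rab39, which acts at late endosomes and lysosomes, was at 90.3 CPM in input 1 and 48.6 CPM in input 3, and at 69.0 CPM and 35.6 CPM in the matching polysome libraries. Its log2 fold change between fractions was -0.41 ± 0.53. Rab5 was the higher in replicate 3, with input levels of 377 and 495 CPM and polysome levels of 354 and 486 CPM (-0.05 ± 0.41). RabX1 had input levels of 40.5 and 60.1 CPM and polysome levels of 35.2 and 51.6 CPM (-0.21 ± 0.49). In Rab11 the inputs alone differed, at 347 and 502 CPM, with 383 and 393 CPM in the polysomes (-0.13 ± 0.40; 0.16 without input 3). These differences between replicates were not tested.

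For Rab9, which returns receptors from late endosomes to the Golgi, input levels of 3.79 and 8.09 CPM and polysome levels of 5.06 and 7.40 CPM gave 0.07 ± 1.32. For Rab27 they were 8.45 and 3.58 CPM against 4.87 and 3.29 CPM (-0.56 ± 1.49). For Rab3 they were 2.04 and 6.43 CPM against 5.10 and 1.81 CPM (-0.29 ± 1.80), with a 95% interval of -4.43 to 3.85. Rab18, with input levels of 33.6 and 25.7 CPM and polysome levels of 30.6 and 18.2 CPM, gave -0.28 ± 0.56. The fold change seen for Rab23 lies within the 95% intervals of Rab3, Rab9 and Rab27. It also lies within those of Rab19, RabX6, Rab21, Rab30 and Rab32. A difference of that size is therefore not excluded in these genes.

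The proteins that load, switch and read Rabs were set beside the family. Of 64 listed genes 61 were matched and 60 tested: 0 were called by edgeR, 3 had an unadjusted p under 0.05 against 4.68% of all tested genes, and 30 were positive and 30 negative. Exchange factors were mostly on the polysome side. Of 15 tested 13 had a positive log2 fold change, the median was 0.55 against 0.00 over all tested genes, and both polysome libraries lay above both inputs in 6 of 15 against 17.2%. Among them were brun, a TRAPP complex subunit, with input levels of 64.4 and 84.2 CPM and polysome levels of 92.2 and 151 CPM (0.71 ± 0.42; 0.30 without polysome 3), and Trs31, another TRAPP subunit (0.98 ± 0.68; 0.47 without polysome 1 and 1.66 without input 3). The lower ones were Sbf, an exchange factor for Rab21, with input levels of 65.0 and 82.8 CPM and polysome levels of 43.0 and 51.3 CPM (-0.65 ± 0.43), and Trs20 (-0.14 ± 0.46). With any 1 library left out, a check chosen after seeing the data, 11 to 13 of the 15 were positive, with medians of 0.39 to 0.52. Over all tested genes the median was then -0.07 to 0.09.

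Of 11 tested GTPase-activating proteins 9 had a negative log2 fold change, of which wkd was at -0.0011, the median was -0.24, and both polysome libraries lay below both inputs in 5 of 11 against 18.1%. Evi5, an activating protein for Rab11, had input levels of 96.0 and 137 CPM and polysome levels of 42.1 and 62.8 CPM (-1.15 ± 0.43, unadjusted p = 0.0289 and adjusted p = 0.956 by edgeR). sky, an activating protein for Rab35, had input levels of 6.604 and 24.6 CPM and polysome levels of 1.61 and 1.36 CPM (-3.39 ± 1.24; -2.15 without input 3). Tbc1d15-17 (0.41 ± 0.47) and Tbc1d22 (0.15 ± 0.54) were on the other side, though Tbc1d22 was at -0.09 without input 1 and -0.37 without polysome 1. Without input 3, 6 of 11 were negative with a median of -0.01, against 0.09 over all tested genes. Without polysome 3, 7 of 11 were negative with a median of -0.12, against -0.04 over all tested genes. The replicates did not share this direction: these 11 genes had a median efficiency of 0.41 in replicate 1, against 0.32 over tested genes, and -0.45 in replicate 3, against 0.09. The median efficiency of the 9 muscle sheath markers was 0.18 and -1.82 in the same order, and its part in the list's value was not tested. The activating proteins are long mRNAs, with a median exon length of 4645 bases against 1531 for exchange factors and 1725 for Rabs. Across 8959 tested genes, which are not independent replicates, longer mRNAs had lower fold changes (Spearman rho = -0.16), and the part of length in either list was not tested.

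Of 30 tested effectors 12 were positive and 18 negative, with a median of -0.08. Sec5, an exocyst subunit used in membrane delivery in the oocyte, had input levels of 15.9 and 9.56 CPM and polysome levels of 43.9 and 36.7 CPM, with a log2 fold change of 1.66 ± 0.57 and, by edgeR, an unadjusted p of 0.0202 and an adjusted p of 0.956. The fold change of Sec5 was 1.76 without polysome 3 and 1.34 without input 3. Besides Sec5 the positive effector with the smallest p was ema (0.60 ± 0.52; -0.07 without polysome 1). On the negative side they were Mical, at -0.73 ± 0.46 (-0.22 without input 3), and rabphilin, Rph, with input levels of 2.14 and 3.22 CPM and polysome levels of 0 and 0.164 CPM. Of the 4 genes of membrane cycling and prenylation, Gdi, which extracts Rabs from membranes, had input levels of 321 and 261 CPM and polysome levels of 296 CPM in replicate 1 and 531 CPM in replicate 3 (0.51 ± 0.44; 0.01 without polysome 3). Rep, which presents new Rabs for prenylation, had input levels of 8.55 and 13.3 CPM and polysome levels of 22.1 and 17.9 CPM (0.87 ± 0.70). RabGGTb, a subunit of the transferase that adds the lipid, had input levels of 36.3 and 17.6 CPM and polysome levels of 24.8 CPM in replicate 1 and 2.30 CPM in replicate 3. Its log2 fold change was -0.99 ± 1.01, and it was -0.14 without polysome 3 and -3.50 without polysome 1 (adjusted p = 0.00225 by edgeR, in the fit that calls 7.24% of genes, against 0.831 to 1.00 in the other alternatives).

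**Figure D4:**
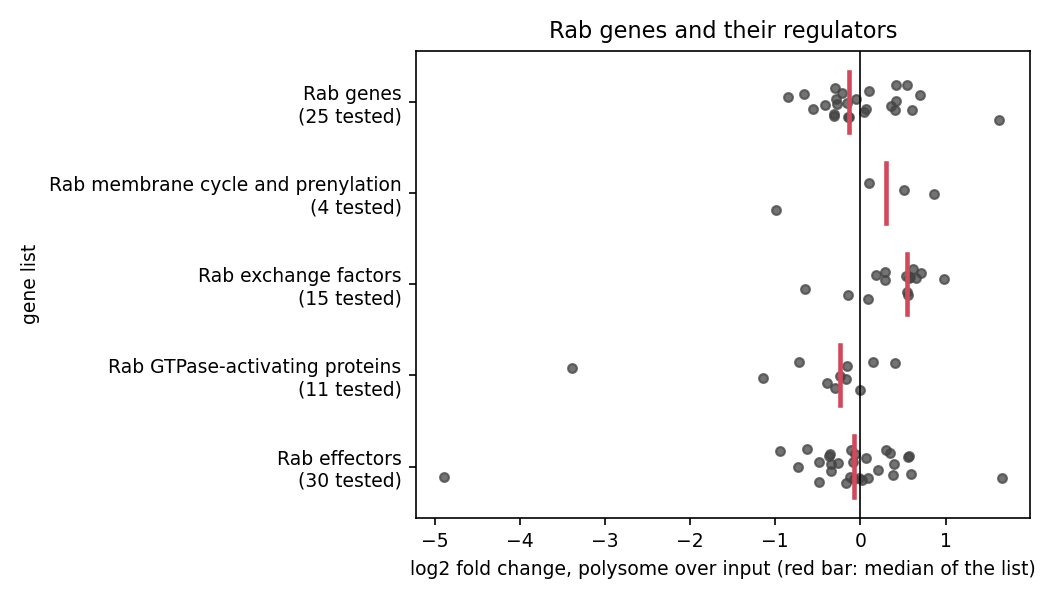
Log2 fold change of polysome over input for the tested Rab genes and 4 lists of their regulators and effectors, 1 point per gene with a red bar at the median of each list. Exchange factors lie mostly right of 0 with a median of 0.55 and activating proteins, over both replicates, mostly left of it with a median of -0.24, while the median of Rabs is -0.13 and that of effectors -0.08.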

How the data were processed

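Alignment was with STAR 2.6.1c to dm6 per the submitters' processing notes, and the authors deposited raw counts of uniquely mapped reads for each gene. The column of the directional kit's strand was used; it held 95.3% to 97.1% of strand-assigned reads. Reads that name no gene (10.8% to 42.6% of all reads) stayed out. Symbols for 17561 identifiers, exon lengths and dm6 coordinates came from FlyBase names and the Ensembl annotation.

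Groups came from the sample titles. edgeR 4.0.16 in R 4.3.3 fitted all 9038 genes kept by filterByExpr, with TMM factors and a single fraction term. The p-values were adjusted by Benjamini-Hochberg. The fit was also run on simulated counts, where the pass mark covered only the direction of changed genes. That mark does not show how many real changes the test would call. Nothing says that replicates came from separate flies, so the p-values rest on a spread that may be technical. Equal numbers were read as one lysate, after the study's use of corresponding inputs, although input and polysome deviations correlated at r = -0.06.

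TPM used summed exon length. Named were every Rab and, per list of regulators, the 2 members with the smallest p in each direction; of 133 list and marker symbols, 5 were matched by a RefSeq synonym and 4 stayed unmatched. Members and lists were chosen with earlier results of these data known. The tests were repeated in DESeq2 1.42.0, with upper-quartile and RLE factors, without the count filter, with a minimum of 50 counts in 2 libraries, on unstranded counts, with the replicate block and with each library left out. List values under these settings were added after seeing the data. Levels were also read with 5 TPM as the expression mark and a pseudocount of 0.1 TPM.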

Additional observations from a re-analysis of the deposited data

Results flagged for a closer look

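Reads on the strand opposite to a Rab gene were outside the main measurement and exceeded the limit that a count of 0 allows in 10 members. RabX6, which Vti1a overlaps, had 738 such reads over 4 libraries, of which 515 were in polysome 3, and Rab19, which Arl5 overlaps by 6 bases, had 505, with 0 in input 1. Rab4 had 175 such reads. RabX5, with no read on its own strand, had 32 on the opposite one, all in polysome 3. For Rab10 there were 25, for Rab30 17, for Rab5 9, for Rab7 7, and for Rab18 and Rab39 6 each.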

How the results depend on the processing

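The count of Rab genes called stayed at 0 in all alternatives that kept the 4 libraries, including the replicate block, and was 0 to 1 with a library left out, the 1 being Rab23 without polysome 1. Genes called over the whole table were 41 by DESeq2, 104 with no count filter and 47 with the replicate block, and 0 to 695 with a library left out; with the other factors, 50 counts and unstranded counts they stayed at 0. The block changed no Rab call. The family median lay between -0.079 and 0.10 with a library left out, against -0.074 to 0.092 over all tested genes. With all 4 libraries, 1 of 175 Rab fold changes turned direction, Rab1 with unstranded counts (-0.35). Leaving out 1 library turned 14 of 100, in 10 genes, whose ranges were -0.38 to 0.16 for Rab11, -0.66 to 0.027 for Rab18, -1.05 to 0.18 for Rab27, -1.16 to 0.76 for Rab3, -0.34 to 1.14 for Rab32, -0.60 to 0.056 for Rab35, -0.91 to 0.10 for Rab39, -0.32 to 0.21 for Rab5, -0.38 to 0.72 for Rab9 and -0.53 to 0.10 for RabX1. Rab23 ranged from 0.64 to 2.26. The cause of these turns was not tested. At 5 TPM 22 Rabs counted as expressed, and the pseudocount moved neither efficiency median by more than the spread between replicates.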
